A study of Mus musculus with 12 samples.

Results

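The data described here are the transcripts of 10 genes of the cardiac thick filament in mouse ventricle: the myosin heavy chains Myh6, Myh7 and Myh7b, the ventricular light chains Myl2 and Myl3, the myosin-binding protein Mybpc3, the light chain kinase Mylk3, the phosphatase subunit Ppp1r12b, and the myosin-directed factors Smyd1 and Unc45b. They were found by symbol in a gene-level read count table of 54949 features, and each of the 10 matched 1 row. All 10 were among the 15114 features with enough counts to be tested. The 12 libraries came from poly-A-selected RNA of ventricular tissue, atria removed, of male wild-type C57BL/6N mice that were 8 weeks old at the start and were kept for 5 weeks. The study set a heart failure with preserved ejection fraction (HFpEF) group, given a high-fat diet and the nitric oxide synthase inhibitor L-NAME (0.5 g/L) in the drinking water, against a control group given normal diet and water.

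The labels of these libraries contradict one another. The 6 libraries named HF-1 to HF-6 carry sample titles and treatment labels of the control group, and the 6 named con-1 to con-6 carry those of the HFpEF group. Groups were taken from the library names and are called HF-named and con-named. The authors' deposited comparison of HF against control follows the library names, with the same signs for Myl2, Myl3 and Ppp1r12b. It does not explain the contradiction with the titles and treatment labels. Which of the groups received the high-fat diet and L-NAME cannot be told from the sources used here. Every fold change below is HF-named over con-named, and its sign with respect to the treatment is therefore unknown. The design text gives 5 ventricular samples per group for this assay, while the labels hold 6. Whether the libraries came from different animals is not stated in the labels. The p-values therefore speak for the spread among these 12 libraries, which may in part be technical.

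Thick filaments of the sarcomere are bundles of myosin molecules, each built from a pair of heavy chains that carry the ATP-splitting motor and from essential and regulatory light chains bound to the lever arm of each head. Alpha myosin (Myh6) is the fast heavy chain and the main one of the adult mouse ventricle, and beta myosin (Myh7) is the slower one that prevails before birth; a shift towards Myh7 is a classical response of the rodent heart to overload or low thyroid hormone. How many heads are free to bind actin is tuned by cardiac myosin-binding protein C and by phosphorylation of the regulatory light chain, and folding and assembly of the heads need dedicated chaperones.

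The heavy chain genes also carry microRNAs, and their sequences are shown because they tie the heavy chain loci together: miR-208a lies in an intron of Myh6, miR-208b in an intron of Myh7 and miR-499 in an intron of Myh7b. The mature sequences, from RefSeq on GRCm38.p6, are given 5′ to 3′ with the seed (bases 2 to 8) in capitals. The miR-208a-3p and miR-208b-3p seeds are identical, and that of miR-499-5p differs from them in its last base.
mmu-miR-208a-3p (chr14:54949072-54949093, minus strand): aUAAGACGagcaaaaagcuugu
mmu-miR-208b-3p (chr14:54975710-54975731, minus strand): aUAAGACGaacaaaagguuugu
mmu-miR-499-5p (chr2:155622893-155622913, plus strand): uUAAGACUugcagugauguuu

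Start-site sequences are shown for the paired heavy chain genes Myh6 and Myh7 and for Myl3 and Ppp1r12b, which changed in opposite directions (below), because all 4 hold the MCAT letters CATTCC, the element bound by TEAD factors in muscle genes. Each run covers 250 bases before and 50 bases after a RefSeq start on GRCm38.p6, read along the gene's own strand, with capitals marking CATTCC or TATAAA in either orientation. The Ppp1r12b start shown is the internal one of its pair of RefSeq starts.
Myh6 (chr14:54966558-54966857, minus strand): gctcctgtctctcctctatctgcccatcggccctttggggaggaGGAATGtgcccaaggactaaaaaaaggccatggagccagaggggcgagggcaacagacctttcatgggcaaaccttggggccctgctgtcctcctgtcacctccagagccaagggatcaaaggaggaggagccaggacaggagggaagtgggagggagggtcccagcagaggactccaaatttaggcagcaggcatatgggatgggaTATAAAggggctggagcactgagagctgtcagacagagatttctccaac
Myh7 (chr14:54994577-54994876, minus strand): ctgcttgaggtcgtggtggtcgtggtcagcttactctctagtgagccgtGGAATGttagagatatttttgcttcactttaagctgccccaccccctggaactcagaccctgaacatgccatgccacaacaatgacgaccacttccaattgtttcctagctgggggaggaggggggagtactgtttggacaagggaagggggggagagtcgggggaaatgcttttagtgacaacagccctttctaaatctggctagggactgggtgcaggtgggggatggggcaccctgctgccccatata
Myl3 (chr9:110763428-110763727, plus strand): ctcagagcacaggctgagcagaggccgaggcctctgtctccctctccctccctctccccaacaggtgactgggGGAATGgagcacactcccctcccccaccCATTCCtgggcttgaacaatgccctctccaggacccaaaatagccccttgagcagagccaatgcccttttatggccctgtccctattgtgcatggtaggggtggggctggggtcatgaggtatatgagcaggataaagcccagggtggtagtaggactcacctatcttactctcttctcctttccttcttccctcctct
Ppp1r12b (chr1:134803793-134804092, minus strand): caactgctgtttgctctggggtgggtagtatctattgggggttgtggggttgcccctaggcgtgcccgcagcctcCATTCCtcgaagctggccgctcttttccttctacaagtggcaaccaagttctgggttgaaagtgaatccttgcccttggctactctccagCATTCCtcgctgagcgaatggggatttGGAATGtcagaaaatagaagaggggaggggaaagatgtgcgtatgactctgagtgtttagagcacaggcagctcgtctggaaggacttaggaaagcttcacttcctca

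All 10 members have a window in the RefSeq table, with 14 windows among them, and 5 of the 14 windows hold CATTCC on either strand, from 5 different genes (the fifth is Mylk3). Of all 32851 windows of that length in the table, 14.7% hold it. In the windows shown, Ppp1r12b has 3 matches, Myl3 has 2 and Myh6 and Myh7 have 1 each. The other windows of Ppp1r12b and Myh7, and the windows of Myl2, which was also called lower, hold no match. Both Myl2 windows (chr5:122092474-122092773 and chr5:122092939-122093238) end before the GENCODE start of Myl2 at 122100951. The bases around that start were therefore not searched, and these windows are among the 14 counted here. The TATA letters TATAAA occur in 3 of the 14 windows, against 13.6% of all windows, and the GATA letters AGATAA in 3 of 14, against 11.2%. The MEF2 letters (CTA, any 4 bases, TAG) occur in 1 of the 14 (Mybpc3), against 3.69% of all. The letters CATTCC therefore stand in windows of genes that were higher, lower and not called, and a match is a description of the window only.

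Levels are given in CPM, the count of a gene relative to the total of its library in units of 1e6 counts, after TMM scaling, which adjusts libraries for differences in composition. Total counts were 14443186 to 22048689 per library. The 10 members together took 4.75 ± 0.142% of all counts in HF-named libraries and 5.00 ± 0.159% in con-named libraries (SD, n = 6 each). Mitochondrial transcripts took 25.2 ± 1.19% in HF-named and 22.4 ± 1.10% in con-named libraries (exact permutation test over 924 splits, two-sided, p = 0.004329), and without them the members' share was 6.35 ± 0.178% in HF-named and 6.44 ± 0.196% in con-named libraries. Ventricular muscle was the tissue seen: the summed level of 10 cardiomyocyte markers was 41962 to 47058 CPM in HF-named and 40265 to 45500 CPM in con-named libraries, while the atrial markers summed to 23.1 to 195 CPM in HF-named and 63.7 to 127 CPM in con-named libraries, most of it Nppa. Of these, Myl7, Sln and Bmp10 were at 0 to 27 counts per library. Since this is bulk tissue, fewer cells of a type and less RNA per cell cannot be told apart.

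Per kilobase of exon, the members span a wide range of levels. Over all 12 libraries the median was 4763 CPM per kb for Myh6, 3124 for Myl2, 2115 for Myl3, 1025 for Mybpc3 and 186 for Mylk3. It was then 106 CPM per kb for Smyd1, 64.2 for Myh7, 50.9 for Unc45b, 34.4 for Myh7b and 18.7 for Ppp1r12b. Myh6, the ventricular light chains and Mybpc3, which code for structural proteins of the adult mouse filament, thus came before the kinase, the methyltransferase, the chaperone and the phosphatase subunit in transcript level. Neighbours in this order had ranges over the 12 libraries that overlapped for Smyd1 and Myh7, Myh7 and Unc45b, and Unc45b and Myh7b, and for no other neighbours.

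Between the groups, 3 of the 10 members passed edgeR's quasi-likelihood test at an adjusted p of 0.05: Myl2 and Myl3 fell and Ppp1r12b rose in HF-named libraries, and the other 7 did not pass. Of all 15114 features, 13.3% passed, 8.28% as higher and 5.05% as lower. The members stood at 1 higher and 2 lower of 10, so the count alone does not set them apart by much from the background. The median log2 fold change of the 10 was 0.11, against −0.01 over all features tested, and the median size regardless of sign was 0.15, against 0.13. The authors' deposited table, a comparison of their own, also called 3 of the 10 members, where it called 5.11% of its 33183 features with an adjusted p. In it, Myl3 had a log2 fold change of −0.24 (adjusted p = 1.0546e-05), Myl2 one of −0.24 (adjusted p = 0.00016687) and Ppp1r12b one of 0.34 (adjusted p = 0.00098745).

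**Figure D1:**
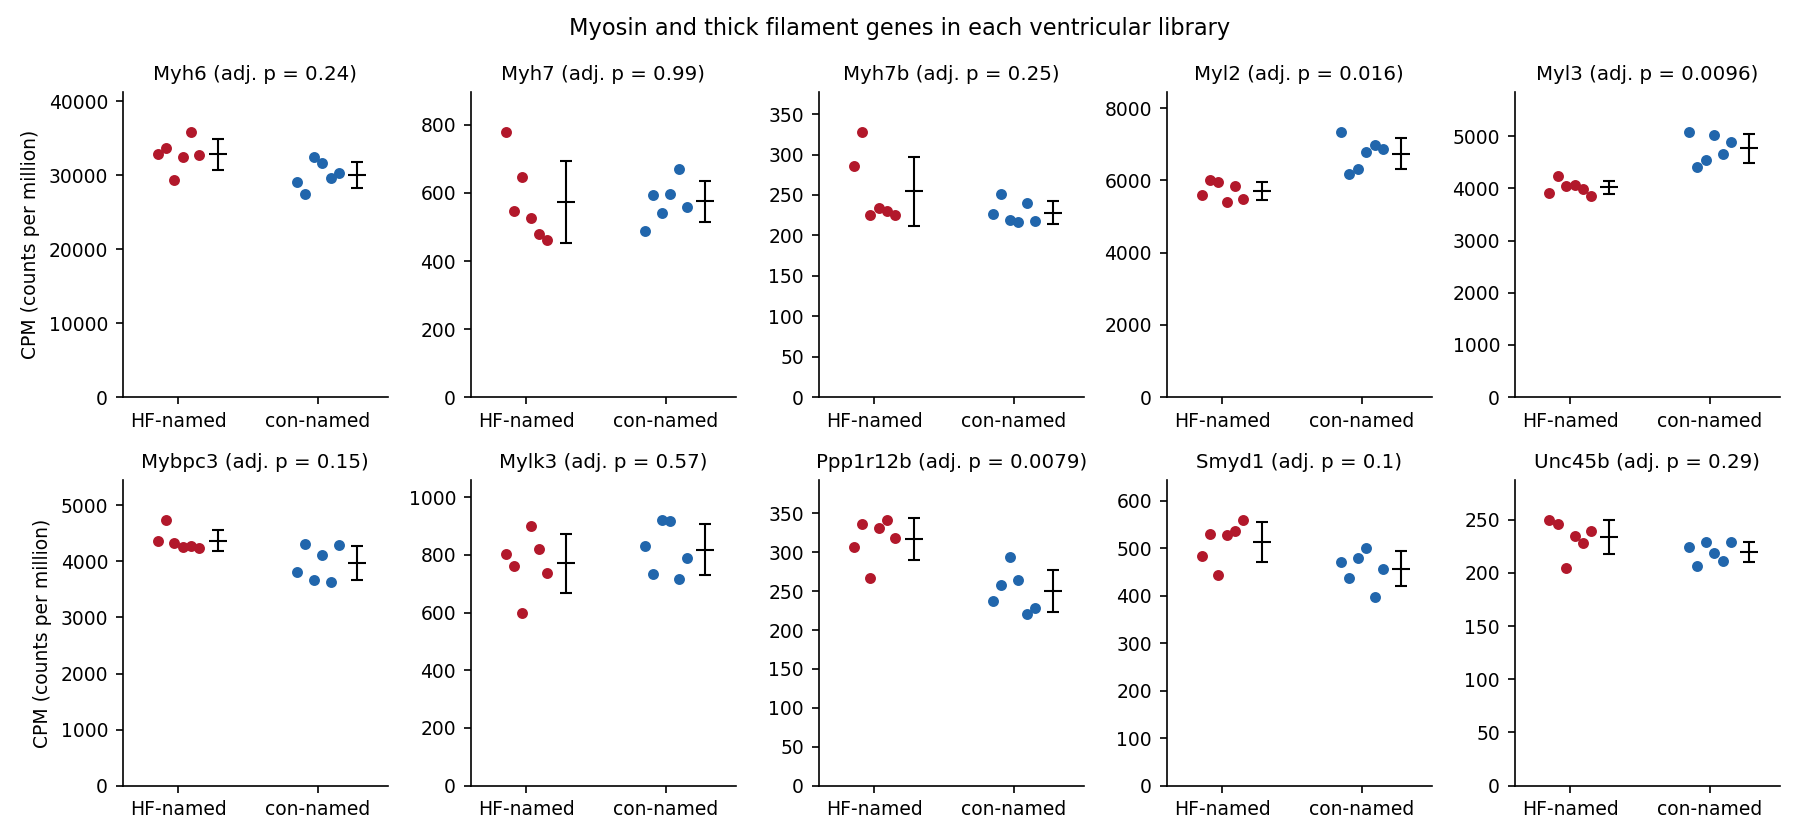
Levels of the 10 members in CPM (vertical axes, starting at 0) in each of the 6 HF-named (red) and 6 con-named (blue) libraries; points are libraries in replicate order, and the black mark and bar to the right are the mean and SD. For Myl2 and Myl3 all red points lie below all blue points, for Ppp1r12b 5 of the 6 red points lie above all blue points, and for Myh7 the red points surround the blue ones.

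Myh6 (chr14:54941921-54966927, minus strand on GRCm38), the alpha heavy chain, was the most abundant member. It ranged over 29301, 32824 and 35879 CPM (lowest, median, highest) in HF-named libraries and 27530, 29944 and 32417 CPM in con-named libraries. HF-named replicate 3 lay inside the con-named range, and the other 5 exceeded the whole of it. The log2 fold change was 0.13 (SE 0.07), which did not pass edgeR's quasi-likelihood test (adjusted p = 0.2435).

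Myh7 (chr14:54970684-54994626, minus strand), the beta heavy chain, did not differ in mean beyond its spread. Its values in HF-named libraries 1 to 6 were 779.6, 546.1, 647.1, 526.2, 479.7 and 463 CPM, and those in con-named libraries 1 to 6 were 488, 594, 542, 596, 671 and 560 CPM. The HF-named libraries thus held the highest value of all 12 and the lowest 2, with the con-named range inside theirs. The means were 574 ± 120 CPM in HF-named and 575 ± 61.3 CPM in con-named libraries (SD, n = 6 each). The fitted difference was −0.00 on the log2 scale with an SE of 0.11 (edgeR adjusted p = 0.986). The coefficient of variation was 20.9% in HF-named and 10.7% in con-named libraries, a difference in spread that was not tested.

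The ratio of Myh7 to Myh6, the usual readout of a heavy chain shift, cancels the scaling of a library. In counts it was 2.37, 1.62, 2.21, 1.62, 1.34 and 1.42% in HF-named libraries 1 to 6, and 1.68, 2.16, 1.67, 1.88, 2.26 and 1.85% in con-named libraries 1 to 6. Compared with the con-named range, 4 HF-named libraries lay under it, 1 lay over it and 1 inside it. The means were 1.76 ± 0.426% in HF-named and 1.92 ± 0.245% in con-named libraries (SD, n = 6 each), a difference of −0.156 percentage points (exact permutation test over 924 splits, two-sided, p = 0.439). Per exon length, from the authors' FPKM values, the ratio was 1.38 ± 0.332% in HF-named and 1.497 ± 0.191% in con-named libraries with the same p by the exact permutation test. Leaving out 1 library at a time kept the difference negative, between −0.277 points without HF-named replicate 1 and −0.071 points without HF-named replicate 5, and no permutation p fell below 0.149. In each of the 12 libraries Myh7 had at most 2.37% of the counts of Myh6. A p that misses the threshold does not show that the ratios were alike.

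**Figure D2:**
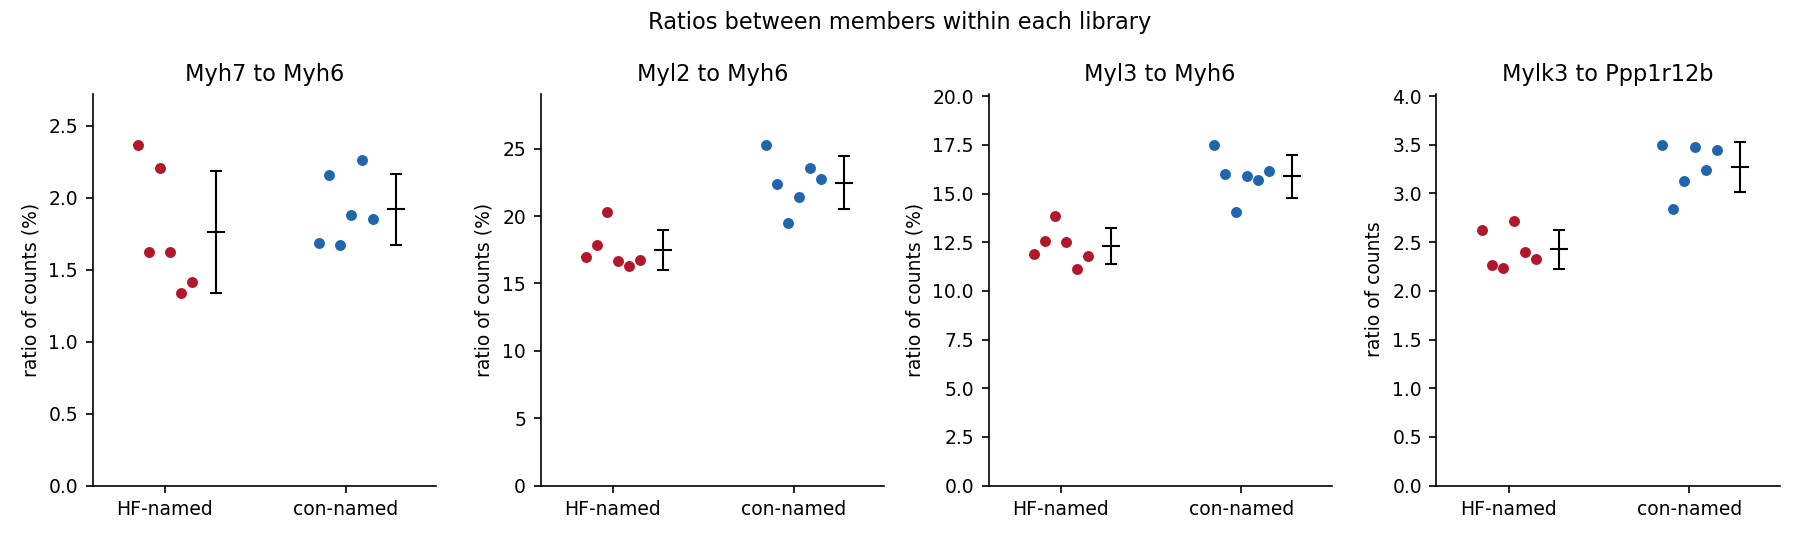
Ratios of raw counts between members within each library (vertical axes start at 0, in percent for the first 3 panels); red points are the 6 HF-named and blue points the 6 con-named libraries, and black marks are mean and SD. Myh7 to Myh6 and Myl2 to Myh6 overlap between the groups, while Myl3 to Myh6 and Mylk3 to Ppp1r12b do not.

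Myh7b (chr2:155611212-155634307, plus strand), another sarcomeric heavy chain gene and the host of miR-499, ranged over 225, 232 and 328 CPM in HF-named libraries and 217, 223 and 251 CPM in con-named libraries. Replicates 1 and 2 of the HF-named group, at 285 and 328 CPM, were the only ones above all con-named libraries. The log2 fold change was 0.16 (SE 0.09) and did not pass edgeR's quasi-likelihood test (adjusted p = 0.252).

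Myh6 and Myh7 lie 3756 bases apart on the same strand of chromosome 14, Myh7 first in the direction of transcription, with antisense transcripts across both. Mhrt, the antisense RNA that starts between them, shares 484 exon bases with Myh7, which are 5.62% of the exon bases of Myh7, and Gm31251 shares 523 (6.07%). Gm49130 shares 114 exon bases (1.70%) with the 3′ end of Myh6. The strand setting of the counting is not given in the sources used here, so reads from these stretches cannot be assigned to a strand. The heavy chains also resemble each other: of all 50-base stretches of the longest Myh7 transcript 22.2% occur letter for letter in that of Myh6, and 5.43% of 150-base stretches do, so short reads there could be assigned to either gene or dropped.

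**Figure D3:**
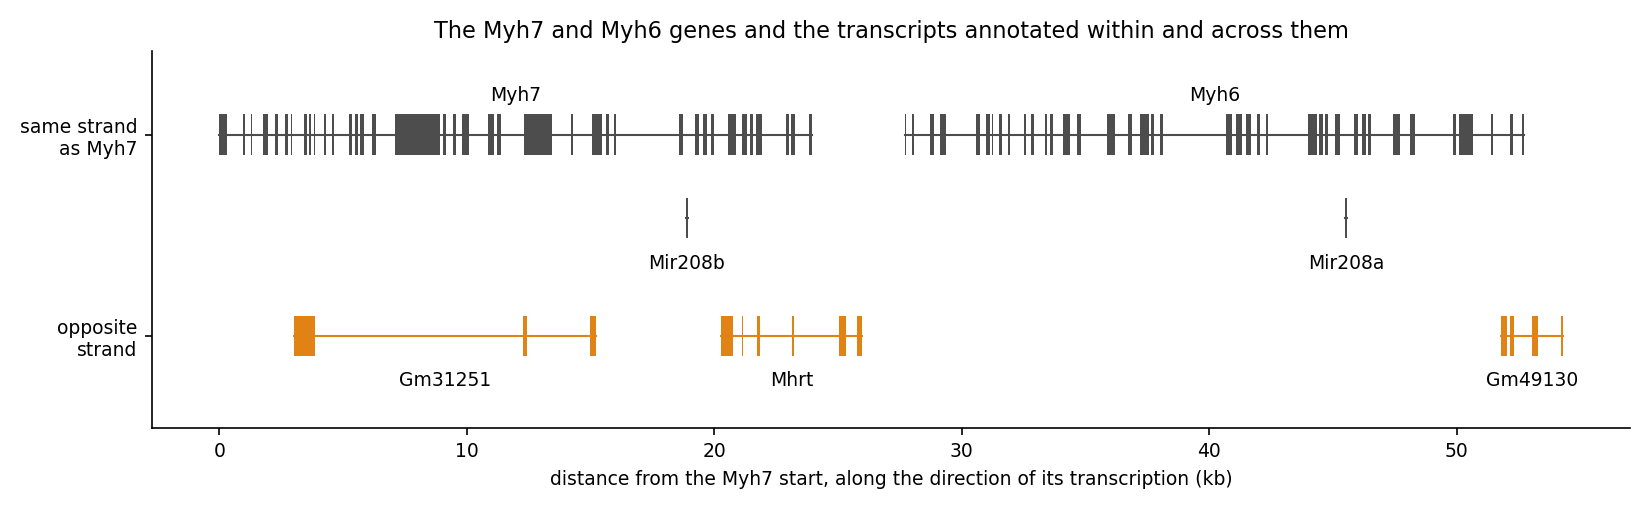
Exons (boxes) and introns (lines) of the transcripts annotated at the Myh7 and Myh6 genes, to scale, by distance in kb from the Myh7 start along its direction of transcription (horizontal axis); grey marks the strand of Myh7 and Myh6, orange the opposite strand. Mhrt lies across the 3′ end of Myh7 and the gap, and the microRNA genes lie between exons of their hosts.

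The other tested rows of this locus, picked after their values were seen, did not pass the test either. Mhrt stood at 104 ± 10.6 CPM in HF-named and 109 ± 17.96 CPM in con-named libraries (−0.08 on the log2 scale, SE 0.10, edgeR adjusted p = 0.655). The row of Mir208b, with 597 to 1355 counts per library, stood at 43.7 ± 5.24 CPM in HF-named and 54.2 ± 10.7 CPM in con-named libraries (log2 fold change −0.31, SE 0.11, edgeR adjusted p = 0.0766). Its ratio to Myh7 was 7.85 ± 1.57% in HF-named and 9.38 ± 1.26% in con-named libraries. Mir208a had 21 to 84 counts per library. Mir499, which lies within Myh7b on chromosome 2, had 0 to 3 counts and was not tested. Poly-A-selected libraries are not made to capture mature microRNAs, and these rows count reads over the hairpin within the host intron, not the mature sequences printed above.

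The ventricular light chains were the members that fell. Myl2 (chr5:122100951-122113472, plus strand), the regulatory light chain and substrate of the kinase encoded by Mylk3, ranged over 5411, 5713 and 6015 CPM in HF-named libraries and 6170, 6827 and 7347 CPM in con-named libraries. Myl3 (chr9:110741861-110769798, plus strand), the essential light chain, ranged over 3863, 4027 and 4236 CPM in HF-named libraries and 4410, 4769 and 5087 CPM in con-named libraries. For both, all 6 HF-named libraries lay below all 6 con-named ones. They were the 2 of 10 members whose groups did not overlap, while 5.36% of all features tested had groups that did not overlap.

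The log2 fold change was −0.24 (SE 0.06) for Myl2, which fell by 15.3%, and −0.25 (SE 0.06) for Myl3, which fell by 15.7% (edgeR adjusted p = 0.0164 for Myl2 and 0.00964 for Myl3). The Myl2 to Myl3 ratio of counts was 1.42 ± 0.0477 in HF-named and 1.41 ± 0.0521 in con-named libraries (exact permutation test, two-sided, p = 0.814), a test that cannot show the ratios to be alike. Against their heavy chain they were lower, in ratios of counts, not per length, computed after the values were seen and not tested. Myl2 was at 17.5 ± 1.48% of the counts of Myh6 in HF-named and 22.5 ± 1.96% in con-named libraries, and Myl3 at 12.3 ± 0.923% in HF-named and 15.9 ± 1.11% in con-named libraries. For the Myl3 to Myh6 ratio, 13.8% was the highest value in HF-named and 14.0% the lowest in con-named libraries, so the groups lay apart. For the Myl2 to Myh6 ratio the groups overlapped, with 20.3% the highest value in HF-named and 19.5% the lowest in con-named libraries.

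Transcript length moved with the fold change across all genes. The median log2 fold change was −0.09 for the 973 genes with under 1000 exon bases and −0.09 for the 1779 genes of 1000 to 2000 bases. It was −0.05 for the 4379 genes of 2000 to 4000 bases and 0.01 for the 5311 genes of 4000 to 8000 bases. For the 2462 genes of 8000 bases or more it was 0.07. Myl2 has 1950 exon bases, Myl3 2044 and Ppp1r12b 14983. With a fitted correction for exon length and base composition (the length and GC offset), the log2 fold changes became −0.18 for Myl2 and −0.18 for Myl3 (edgeR adjusted p = 0.0636 and 0.0512), so neither passed, and that of Ppp1r12b became 0.27 (adjusted p = 0.0174). With no filter beyond 1 count, both light chains also missed the threshold (Myl2 −0.25, adjusted p = 0.0960; Myl3 −0.25, adjusted p = 0.0638).

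Other genes of the cardiomyocyte moved both ways. Among the 10 cardiomyocyte markers, 3 fell (Tnnt2 by 0.23, Tnni3 by 0.25 and Tcap by 0.34 on the log2 scale). A further 3 rose (Ttn 0.40, Ryr2 0.46 and Actn2 0.21), and 4 did not pass. Of all features tested, 5.05% passed as lower and 8.28% as higher. The markers that fell or rose were named after their values were seen, apart from Tnnt2. Tnnt2 (edgeR adjusted p = 0.0478) missed the threshold in 13 of 22 alternative fits, 10 of them with 1 library left out. With the length and GC offset Tnnt2 was at −0.26 and passed (edgeR adjusted p = 0.0371). Values with this offset are not given here for Tnni3, Tcap, Ttn, Ryr2 and Actn2. Whether their directions go with transcript length was not tested. The part of transcript length or RNA quality in the change of the light chains was not tested beyond this offset.

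Mybpc3 (chr2:91118144-91136516, plus strand), cardiac myosin-binding protein C, which holds myosin heads near the filament backbone, ranged over 4248, 4308 and 4733 CPM in HF-named libraries and 3638, 3964 and 4306 CPM in con-named libraries. Of the HF-named libraries 3 lay above all con-named ones. The log2 fold change of 0.14 (SE 0.06) did not pass edgeR's quasi-likelihood test (adjusted p = 0.149), and with the length and GC offset it was 0.20 and passed (adjusted p = 0.0448). Relative to Myh6, Mybpc3 stood at 13.4 ± 0.977% of counts in HF-named and 13.3 ± 1.498% in con-named libraries.

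The kinase and the phosphatase subunit that act on the regulatory light chain in heart differed in behaviour. Mylk3 (chr8:85324303-85386345, minus strand), cardiac myosin light chain kinase, ranged over 598, 783 and 902 CPM in HF-named libraries and 717, 810 and 920 CPM in con-named libraries. The ranges overlapped, and the fitted difference was −0.09 on the log2 scale with an SE of 0.09 (edgeR adjusted p = 0.570). Ppp1r12b (chr1:134754658-134955942, minus strand), which codes for the myosin-targeting subunit MYPT2 of protein phosphatase 1, ranged over 267, 325 and 341 CPM in HF-named libraries and 221, 248 and 294 CPM in con-named libraries. HF-named replicate 3 lay inside the con-named range, and the other 5 exceeded the whole of it.

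Ppp1r12b rose by 0.34 on the log2 scale (SE 0.07), a level 26.4% higher in HF-named libraries (edgeR adjusted p = 0.00791). The Mylk3 to Ppp1r12b ratio of counts, computed after the values were seen and not tested, was 2.62, 2.26, 2.23, 2.72, 2.40 and 2.32 in HF-named libraries 1 to 6. In con-named libraries 1 to 6 it was 3.50, 2.84, 3.13, 3.48, 3.24 and 3.45. The highest HF-named value lay below the lowest con-named one. Ppp1r12b has the most exon bases of the 10 members, and its gene holds more than 1 RefSeq start, so a change in which transcript is made cannot be told apart from a change in the level of all of them in these gene-level counts.

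Both factors that help build the filament lay slightly higher without passing the test. Smyd1 (chr6:71213940-71322233, minus strand), a muscle lysine methyltransferase that binds myosin and is needed for thick filament assembly in zebrafish, ranged over 444, 528 and 559 CPM in HF-named libraries and 398, 464 and 500 CPM in con-named libraries. On the log2 scale Smyd1 was at 0.17 with an SE of 0.07 (edgeR adjusted p = 0.101), and without HF-named replicate 3, the lowest of its group, it was 0.21 and passed (adjusted p = 0.0305). Unc45b (chr11:82910550-82943403, plus strand), the muscle chaperone that folds the myosin motor together with Hsp90, ranged over 204, 237 and 249 CPM in HF-named libraries and 207, 221 and 229 CPM in con-named libraries. On the log2 scale Unc45b was at 0.09 with an SE of 0.05 (edgeR adjusted p = 0.2905), and under scaling by library totals it turned to −0.03.

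**Figure D4:**
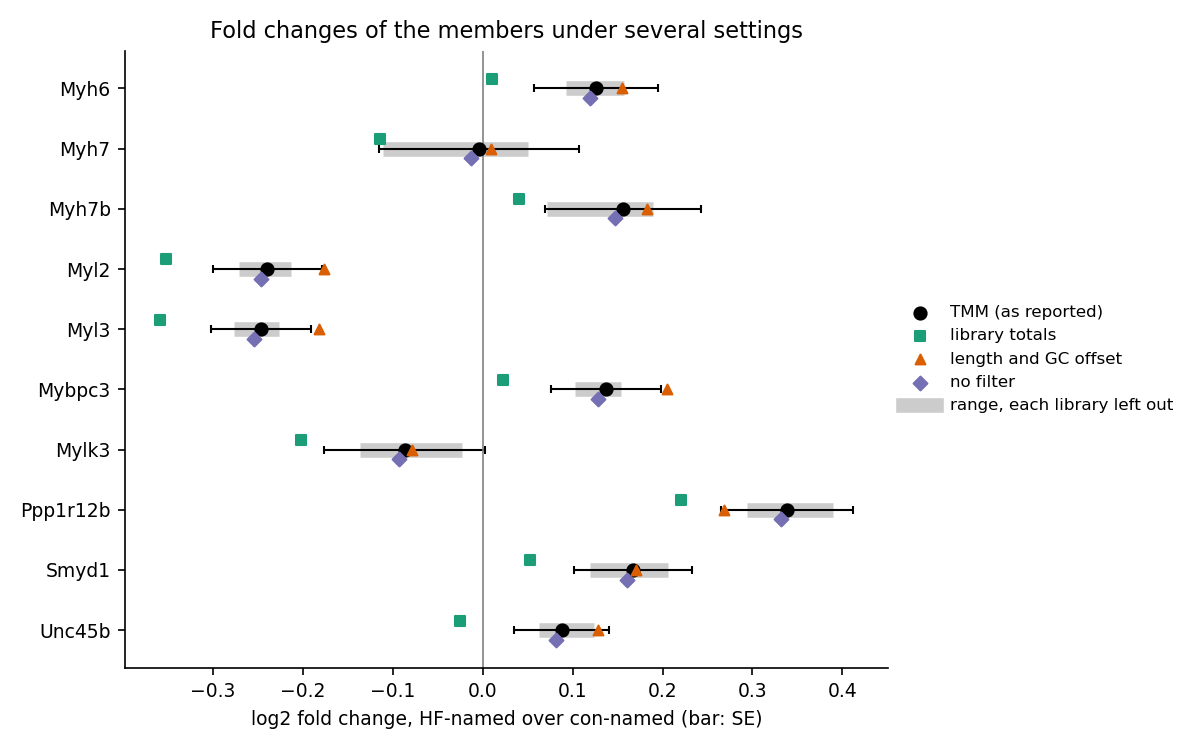
Log2 fold changes of the 10 members, HF-named over con-named (horizontal axis); black points and bars are the reported values and their SE, grey bands the range over 12 fits that each leave out 1 library, and coloured symbols other settings. Scaling by library totals moves every member to the left, and the length and GC offset brings Myl2, Myl3 and Ppp1r12b closer to 0.

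The scaling sets where 0 lies for all members. Under library totals, the median of all features tested was −0.13, against −0.01 under TMM. Relative to that median the members hardly moved: Ppp1r12b stood at 0.35 under both scalings, Myl2 at −0.22 under library totals and −0.23 under TMM, and Myl3 at −0.23 under both.

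Whether members vary together within a group was tested for 5 of their pairs. Of these 5 pairs in each of the groups (10 relations), none passed after Benjamini-Hochberg adjustment, the smallest adjusted p for Pearson's r being 0.306 by exact permutation. Myl2 and Myl3 had r = 0.65 and Spearman coefficient = 0.43 in HF-named libraries (exact permutation p = 0.156 and 0.419), and r = 0.83 and Spearman coefficient = 0.77 in con-named libraries (exact permutation p = 0.050 and 0.103). Without the 2 libraries farthest from the median of Myl2, r was 0.996 in HF-named and 0.29 in con-named libraries. Mylk3 and Ppp1r12b had r = 0.83 and Spearman coefficient = 0.60 in HF-named libraries (exact permutation p = 0.0611 and 0.242), and r = 0.71 and Spearman coefficient = 0.83 in con-named libraries (exact permutation p = 0.121 and 0.0583), and without the 2 farthest libraries r was 0.13 in HF-named and −0.00 in con-named libraries. HF-named replicate 3 was the lowest of its group for Myh6, Mylk3, Ppp1r12b, Smyd1 and Unc45b and the second highest for Myh7.

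As a description over all 12 libraries, which includes the group difference, the genes whose log2 CPM followed Myh6 most closely among 13691 annotated genes were Ttc17 (Pearson's r = 0.95), Ralgapa2 (0.94) and the pseudogene Gm5421 (0.93). For Myh7 they were Wt1 (0.93), a transcription factor of the epicardium, Galnt18 (0.92) and Papln (0.90). None of these 6 genes passed edgeR's test between the groups.

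Other genes of the myosin system were read from 7 lists holding 62 genes, of which 49 could be tested. In HF-named libraries 10 of the 49 rose and 0 fell (20.4%, beside 13.3% of all features in either direction), with a median log2 fold change of 0.11. Scaling by library totals, under which the median of all features was −0.13, called 3 of them higher (Myh14, Rock2 and Tead1) and 4 lower (Ppp1r14c, Smyd2, Stub1 and Unc45a), while RLE size factors called 10 higher and 0 lower. No gene that codes for a sarcomeric heavy chain of other muscle was testable: all 7 listed (Myh4 among them) had at most 18 counts in any library. At the transcript level, Myh6, Myh7 and Myh7b were therefore the sarcomeric heavy chains that could be tested. Protein was not measured.

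As background for the count of each list, 8.28% of all features tested passed as higher and 5.05% as lower. Among 4 heavy chains of smooth muscle and nonmuscle cells 1 rose, the nonmuscle chain Myh14. It stood at 229 ± 30.6 CPM in HF-named and 185 ± 13.3 CPM in con-named libraries (log2 fold change 0.31, edgeR adjusted p = 0.0203). Without HF-named replicate 5 its adjusted p was 0.0515. Of 8 other light chains tested 1 rose, Myl12a, a nonmuscle regulatory chain, at 322 ± 34.3 CPM in HF-named and 254 ± 30.5 CPM in con-named libraries (0.34, edgeR adjusted p = 0.0132), while 7 did not pass, Myl6 and Myl9 among them. Of the other myosin-binding proteins, only Mybpc2, the fast skeletal form, could be tested, at 38.0 ± 13.5 CPM in HF-named and 22.5 ± 9.54 CPM in con-named libraries (0.75, SE 0.25, edgeR adjusted p = 0.0522). It passed in 7 of 22 alternative fits, among them the length and GC offset (0.82, adjusted p = 0.0396) and limma-voom (adjusted p = 0.0404).

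Of 11 other kinase and phosphatase genes 4 rose, beside 8.28% of all features tested. Rock2 and Rock1, kinases that inhibit the myosin phosphatase, stood at 149 ± 13.8 and 116 ± 6.53 CPM in HF-named and 121 ± 6.01 and 102 ± 3.67 CPM in con-named libraries (log2 fold changes 0.30 and 0.19, edgeR adjusted p = 0.00458 and 0.0136). For both, all 6 HF-named libraries lay above all con-named ones. Ppp1cb, the catalytic subunit that pairs with MYPT2, was at 410 ± 24.8 CPM in HF-named and 349 ± 28.2 CPM in con-named libraries (0.23, edgeR adjusted p = 0.0187), and Ppp1r12a, the smooth muscle and nonmuscle targeting subunit, named after its value was seen, rose by 0.19 (edgeR adjusted p = 0.0195). With the length and GC offset Rock1 was at 0.08 and Ppp1cb at 0.15, and Rock1, Ppp1cb and Ppp1r12a did not pass, nor did they under library totals. The other targeting subunit tested, Ppp1r12c, had a log2 fold change of −0.02 (edgeR adjusted p = 0.815), and Mylk4, Ppp1r14c and the other 4 genes did not pass either.

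Of 8 chaperone and methyltransferase genes 2 rose: Hsp90aa1, the inducible Hsp90 partner of UNC45 proteins, at 138 ± 9.34 CPM in HF-named and 114 ± 6.69 CPM in con-named libraries (0.28, edgeR adjusted p = 0.00453), and Naca, whose muscle form binds Smyd1, at 543 ± 68.7 CPM in HF-named and 447 ± 26.6 CPM in con-named libraries (0.28, edgeR adjusted p = 0.0218). Of 17 regulators of Myh6 and Myh7 transcription 2 rose. As 8.28% of all features tested passed as higher, these counts alone do not set the regulators apart by much. Tead1, of the TEAD factors, stood at 157 ± 16.01 CPM in HF-named and 124 ± 10.8 CPM in con-named libraries (0.34, edgeR adjusted p = 0.00697). It passed in all 22 alternative fits. Binding of TEAD factors to the letters marked above was not measured. Srf, the serum response factor, rose by 0.18 (edgeR adjusted p = 0.0389), and missed the threshold under library totals and in 10 of 12 fits that each left out 1 library. The thyroid hormone receptor genes Thra and Thrb, with log2 fold changes of −0.03 and 0.14, did not pass, nor did Gata4, Tbx5, Mef2a, Mef2c or Mef2d.

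**Figure D5:**
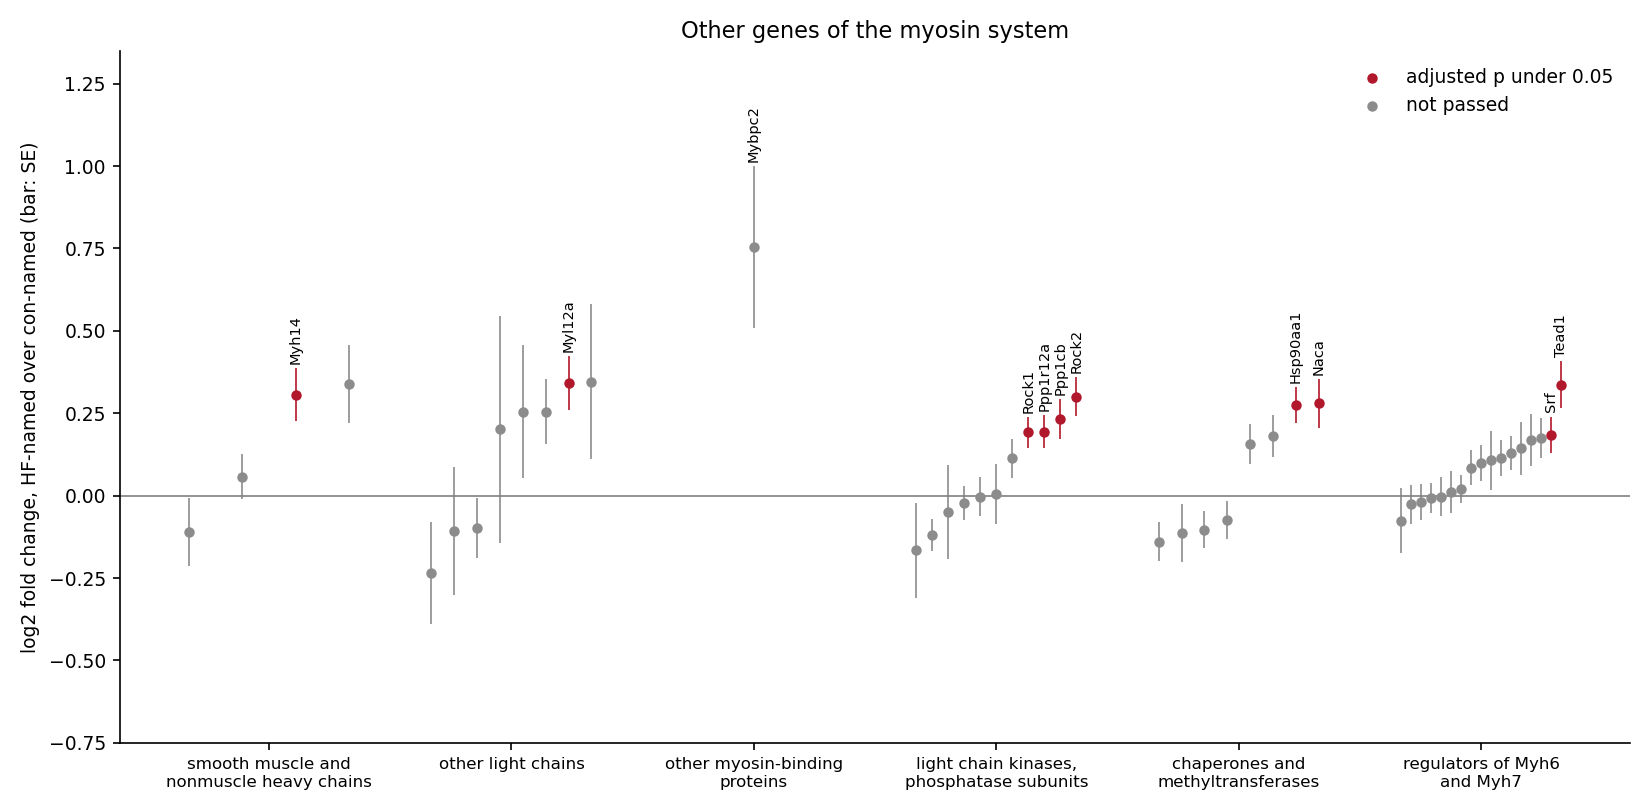
Log2 fold changes with SE, HF-named over con-named (vertical axis), of the 49 tested genes in 6 lists of the myosin system, sorted within each list; red marks the 10 genes with an edgeR adjusted p under 0.05. All 10 red points lie above 0 under the TMM scaling used here; library totals called 3 higher and 4 lower.

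Markers of other cells moved between the groups as well. Of all features tested, 5.05% passed as lower and 8.28% as higher, and 5.36% of single features had groups that did not overlap. The summed level of 6 fibroblast markers was 993 to 1233 CPM in HF-named and 1257 to 1545 CPM in con-named libraries, with no overlap, and 2 of the 6 fell (Dcn and Gsn). That of 6 endothelial markers was 891 to 1362 CPM in HF-named and 1142 to 1496 CPM in con-named libraries. Of these 6, 2 fell, Vwf by 1.04 and Kdr by 0.46 on the log2 scale (edgeR adjusted p = 0.000792 and 0.0453). The 6 macrophage markers summed to 159 to 215 CPM in HF-named and 184 to 260 CPM in con-named libraries (2 of 6 fell, Csf1r and Lyz2). Csf1r (edgeR adjusted p = 0.0335) missed the threshold in 11 of 22 alternative fits, 8 of them with 1 library left out, and Gsn did with the length and GC offset (−0.19, adjusted p = 0.0693). Of 4 tested smooth muscle markers 0 passed edgeR's test, with summed levels of 358 to 451 CPM in HF-named and 340 to 483 CPM in con-named libraries. The skeletal muscle markers, of which 4 could be tested and 1 fell (Ckm, also abundant in heart, by 0.17 on the log2 scale), summed to 1054 to 1236 CPM in HF-named and 1096 to 1305 CPM in con-named libraries. Ckm (edgeR adjusted p = 0.0474) missed the threshold in 14 of 22 alternative fits, and with the length and GC offset it was at −0.10 (adjusted p = 0.287). Of 5 red cell markers 1 rose, and they summed to 334 to 665 CPM in HF-named and 304 to 518 CPM in con-named libraries. The part of cell composition, and of the mitochondrial share, in the changes of Myl2, Myl3, Ppp1r12b and the nonmuscle genes was not tested.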

How the data were processed

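Ventricular poly-A RNA of 12 mouse libraries was measured by RNA-seq. The submitters' processing notes name HISAT2 2.0.5, HTSeq 0.9.1, cutadapt 1.15 and the build mm10, without tying tools to steps. For the annotation release and the strand setting, the value is not given in the sources used here. The deposited table holds the authors' read counts per gene, not normalized, and their FPKM values. Ratios between genes were taken from the counts, and that of Myh7 to Myh6 also from the FPKM values. For all 10 members the deposited FPKM values imply the GENCODE M21 exon length. A further deposited table, of a comparison by the authors, holds the mean per group of the counts divided by size factors (a signal), p-values raw and adjusted, and log2 fold changes.

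Groups came from the library names in the description label, because in all 12 cases title and treatment point to the other condition. Counts were filtered with filterByExpr, scaled by TMM and tested with edgeR 4.0.16 (quasi-likelihood test, group as the only term, two-sided, R 4.3.3, limma 3.58.1). Adjusted p-values are Benjamini-Hochberg over all 15114 features tested, at 0.05. An SE is the size of the log2 fold change over the root of its F statistic. Single values per library were compared by exact permutation over 924 splits with numpy 2.4.6. Correlations use log2 CPM with a prior count of 2, with scipy 1.17.1 for Spearman coefficients. Exon lengths and coordinates are from GENCODE M21, which holds 98.6% of the tested identifiers. The fit was tested on simulated data before use.

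The members and gene lists were chosen with earlier results of these data known. The text names all 10 members; in each list up to 3 genes of smallest p among those called, otherwise the 1 of smallest p; in each marker list the 2 most abundant genes, where they bear on a result; and the 3 genes most correlated with Myh6 and with Myh7. Genes named outside this rule, including those mentioned as not passing, were chosen after their values were seen. Alternatives were RLE size factors, library totals, other filters, no mitochondrial transcripts, a length and GC offset (a spline of exon length and base composition fitted per library), a replicate block, DESeq2 1.42.0, limma-voom and each library left out. Counts of 440348 to 689753 for Myh6 and 3072 to 5046 for Unc45b make counting error small beside the spread between libraries.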

Additional observations from a re-analysis of the deposited data

Results flagged for a closer look

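A screen of 76 groups of 6 libraries looked for a library that lay far from the other 5 of its group, by the gap to its neighbour relative to the whole range. Chance flags about 1 in 20 such groups, and 5 values were found, all in HF-named libraries. For Mybpc3, HF-named replicate 2 was the highest at 4733 CPM, against 4248 to 4360 CPM in the other 5. For the Myl2 to Myl3 ratio of counts, HF-named replicate 4 was the lowest at 1.33, against 1.42 to 1.47 in the other 5. HF-named replicate 3 was the highest for Mybpc2 at 62.7 CPM, against 25.1 to 38.9 CPM, and for the endothelial and fat cell marker Fabp4 at 624.7 CPM, against 419 to 491 CPM. For the atrial light chain Myl4, HF-named replicate 1 was the highest at 4.19 CPM, against 0.869 to 1.61 CPM in the other 5, and the log2 fold change of Myl4 (0.20, edgeR adjusted p = 0.747) turned to −0.24 without it.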

How the results depend on the processing

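Myl2, Myl3 and Ppp1r12b passed the threshold under RLE size factors, library totals, a filter of 1 CPM in 6 libraries, no mitochondrial transcripts, DESeq2, limma-voom and in each of the 12 fits that left out 1 library. The number of members called was 1 with no filter beyond 1 count, where Ppp1r12b remained. Library totals called 3065 features (483 higher, 2582 lower), against 2016 under TMM (1252 higher, 764 lower), and split the 7 genes called in the other lists into 3 higher and 4 lower, and the length and GC offset called 1059 higher and 487 lower; the cause was not tested. Leaving out 1 library gave 1355 to 2550 features called, 3 to 4 members called and 8 to 15 genes called of the 49 in the other lists, the most in each case without HF-named replicate 3.

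The direction of Myh7, which was not called, was not settled: its log2 fold change was 0.0093 with the length and GC offset and −0.111 to 0.051 with 1 library left out, positive in 6 of these 12 fits. Unc45b turned to −0.026 under library totals, and Myl4 ran from −0.242 to 0.393 with 1 library left out, the lowest without HF-named replicate 1. The difference of the Myl2 to Myl3 ratio ran from −0.0065 to 0.0243 with 1 library left out, and that of the Myh7 to Myh6 ratio from −0.277 to −0.071 percentage points.

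Replicate numbers did not pair the libraries: the correlation of same-numbered libraries ran from −0.161 to 0.0900, and 1 of 6 HF-named libraries matched its own number best. With a replicate block, 1131 features, 1 member (Ppp1r12b, adjusted p = 0.0370) and 6 genes of the other lists were called. With the replicate block and the length and GC offset together, 830 features, 0 members (Ppp1r12b 0.27, adjusted p = 0.0714) and 5 genes of the other lists were called. In that last fit, edgeR's unadjusted p was under 0.05 for 6 members, while DESeq2 and limma-voom, run without block or offset, called 3 members each. For the Myh7 to Myh6 ratio, the replicate block gave an exact permutation p of 0.5625.

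Depth was not the limit for the members, which had at least 3072 counts per library; it limits Mir208a, Mir499 and the sarcomeric heavy chains of other muscle. Gene-level counts hold no transcripts, so starts and isoforms could not be compared.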
